A study of Mus musculus with 24 samples.

Results

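The 42 genes described here code for proteins that carry a cell through its division cycle or hold it back from entering one. They were taken by name, as every non-control probe whose gene name on the array equalled one of the 42 symbols, and all 42 were present among 37074 genes on the array. By role they comprised 14 mitotic kinases, cyclins and spindle genes, 9 genes of replication licensing and the sliding clamp, 3 enzymes of deoxynucleotide synthesis, 6 cyclins and kinases of G1 and S phase, 3 E2F factors, 3 inhibitors of cyclin-dependent kinases (CDKs) and 4 growth arrest genes. After probes close to background were left out, 38 of the 42 remained among 21331 genes tested. Bub1 and Bub1b, kinases of the spindle checkpoint, were well above background on 0 of 6 arrays in each group, Ccne2, a cyclin of S phase entry, on 0 or 1, and Aurkb, a kinase of chromosome segregation, on 0 to 2. No change is given for these 4.

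Livers came from 24 male C57Bl/6J mice, 6 in each of 4 groups, and each liver was hybridised to its own single-colour array. Mice of the LWT genotype express the nuclear receptor PPARα in hepatocytes, and those labelled LKO do not; the Cre line or promoter behind the LKO genotype is not given in the sources used here. Both genotypes received either the vehicle, 0.5% carboxymethyl cellulose in water, or the same vehicle with 3 mg/kg of CL316243, which activates the beta3 adrenergic receptor, by gavage at Zeitgeber time 10 h, where time 0 h is lights on. All mice ate a standard diet freely and their livers were taken at 16 h, so each value reflects 6 h of exposure. The question behind the series, per its title, is how far hepatocyte PPARα shapes the liver's answer to beta3 adrenergic stimulation.

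Progress through the cycle is driven by CDKs bound to cyclins. In G1, cyclin D with Cdk4 or Cdk6 and cyclin E with Cdk2 release E2F factors from pocket proteins, and E2F then switches on genes for replication licensing, nucleotides and its own family. CDK inhibitors and growth arrest genes oppose these steps. In the adult liver most hepatocytes rest outside the cycle, and transcripts of dividing cells are low until injury or a mitogen calls hepatocytes back.

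Levels are given as log2 intensity relative to the 75th percentile of the same array, and levels of different genes are not compared, since each rests on its own probe. That percentile was an intensity of 285 to 390 in LWT mice and 271 to 374 in LKO mice, with 26985 to 34202 of 56605 probes well above background. The arrays lay on 3 slides with 2 mice of each group on every slide. Ppara, whose deleted part is not given in the sources used here, so that its probe is no sure check of the genotype, had a mean level of 6.24 ± 0.16 (SD, n = 6) with vehicle and 6.79 ± 0.28 with CL316243 among LWT mice, and 5.57 ± 0.15 and 4.88 ± 0.65 respectively among LKO mice. The genotypes differed by -0.67 with vehicle (limma adjusted p 0.161) and by -1.91 after treatment (limma adjusted p 3.43e-07). The 7 hepatocyte markers measured were above background on every array. In whole liver, fewer cells of a type and less RNA per cell cannot be told apart.

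Promoters of 6 members that changed are shown because they carry motifs named for cell cycle or signal-dependent control. They are the 250 bases before the RefSeq start in build GRCm38.p6, 5′ to 3′ on the gene's strand, with motif matches in capitals. The lines stand for Mcm5 (chr8:75109259-75109508, plus strand), Mcm6 (chr1:128359706-128359955, minus strand), Cdc6 (chr11:98907901-98908150, plus strand), E2f8 (chr7:48881597-48881846, minus strand), Btg2 (chr1:134079156-134079405, minus strand) and Gadd45g (chr13:51846425-51846674, plus strand).
Mcm5: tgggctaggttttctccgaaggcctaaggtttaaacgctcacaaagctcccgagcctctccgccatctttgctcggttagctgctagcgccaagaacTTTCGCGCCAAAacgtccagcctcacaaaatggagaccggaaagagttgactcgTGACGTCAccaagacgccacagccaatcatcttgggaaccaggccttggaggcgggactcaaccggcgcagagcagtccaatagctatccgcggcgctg
Mcm6: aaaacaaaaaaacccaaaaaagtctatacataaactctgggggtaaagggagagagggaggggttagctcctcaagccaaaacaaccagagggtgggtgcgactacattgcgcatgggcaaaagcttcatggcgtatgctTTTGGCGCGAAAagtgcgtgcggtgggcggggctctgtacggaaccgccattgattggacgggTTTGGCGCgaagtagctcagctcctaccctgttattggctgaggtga
Cdc6: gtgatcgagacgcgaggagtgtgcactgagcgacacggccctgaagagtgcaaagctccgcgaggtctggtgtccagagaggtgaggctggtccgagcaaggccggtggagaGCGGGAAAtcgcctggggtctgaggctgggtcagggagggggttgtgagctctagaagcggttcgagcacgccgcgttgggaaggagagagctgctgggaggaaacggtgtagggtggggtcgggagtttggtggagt
E2f8: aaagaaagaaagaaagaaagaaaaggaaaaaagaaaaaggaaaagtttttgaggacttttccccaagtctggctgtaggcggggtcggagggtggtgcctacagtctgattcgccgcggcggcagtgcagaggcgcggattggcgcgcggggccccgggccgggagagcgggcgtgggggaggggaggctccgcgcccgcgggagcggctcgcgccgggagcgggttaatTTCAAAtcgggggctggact
Btg2: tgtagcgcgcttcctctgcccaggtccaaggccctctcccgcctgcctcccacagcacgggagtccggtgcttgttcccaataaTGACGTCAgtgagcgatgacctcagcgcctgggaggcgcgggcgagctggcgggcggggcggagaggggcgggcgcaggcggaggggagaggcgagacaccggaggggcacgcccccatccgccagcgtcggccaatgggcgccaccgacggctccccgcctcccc
Gadd45g: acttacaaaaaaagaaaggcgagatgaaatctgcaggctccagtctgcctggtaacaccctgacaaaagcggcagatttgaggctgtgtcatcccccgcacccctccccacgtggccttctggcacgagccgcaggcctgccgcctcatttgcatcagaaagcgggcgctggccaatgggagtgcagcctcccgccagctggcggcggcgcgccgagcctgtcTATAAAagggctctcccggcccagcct

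The E2F motif was searched as TTTCCCGC, TTTGCCGC, TTTCGCGC or TTTGGCGC, the CHR element of cell cycle genes as TTTGAA, the cAMP response element as TGACGTCA and the TATA box as TATAAA, on both strands. In Mcm5 and in the upstream site of Mcm6, matches on opposite strands overlap and form 1 run of capitals. Of the 42 members, 36 matched a promoter by symbol; Aurkb, Ccna2, Ccnd1, Ccne2, Foxm1 and Mcm4 did not. An E2F match lay in the promoters of 6 of 36 members (Cdc6, Cdk1, Cdk2, Mcm5, Mcm6 and Mcm7) and in 1.86% of all 32851 promoter windows of the same length. CHR matches were found in 8 of 36 members (Ccnb2, Cdc20, Cdk1, E2f2, E2f8, Mcm2, Mki67 and Top2a) against 16% of windows. The cAMP response element matched in Btg2 and Mcm5 (1.55% of windows) and the TATA box in Cdk6, Gadd45b and Gadd45g (12.4%). Members with an E2F match did not share a direction: Mcm5, Mcm6 and Cdc6 fell with CL316243 in LWT livers, Cdk2 rose, and Cdk1 and Mcm7 were not called.

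With CL316243, E2f8, Cdkn1a, Gadd45b, Gadd45g and Btg2 rose in both genotypes, and E2f1, E2f2, Mcm5, Mcm6, Tyms, Cdk6, Birc5 and Cdkn2c fell in both. In LWT livers 19 of 38 members were called (limma, Benjamini-Hochberg adjusted p under 0.05), against 38.2% of all genes. Rises were called for 7 members, against 19.1% of all genes, and falls for 12, against 19.1%. In LKO livers 19 of 38 were called, against 40.2%, with 8 rises (20.7% of all genes) and 11 falls (19.4%). The median change over the 38 was -0.30 in LWT and -0.12 in LKO, and over all genes 0.01 and 0.03. A change of at least 1 on the log2 scale was called for 10 members in LWT and 9 in LKO, against 7.88% and 7.63% of all genes. No vehicle mouse overlapped a CL316243 mouse for 9 members in LWT, against 20.3% of genes, and for 11 in LKO, against 20.8%. Across both genotypes 13 members were called in the same direction, 5 up and 8 down, and 0 in opposite directions. A further 6 were called in LWT alone (Plk1, Mcm3, Cdc6, Cdt1, Rrm1 and Cdk2) and 6 in LKO alone (Ccna2, Mcm2, Cdk4, Ccnd1, Ccne1 and Cdkn1b), and for 10 of these 12 the difference between genotypes was not called.

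**Figure D1:**
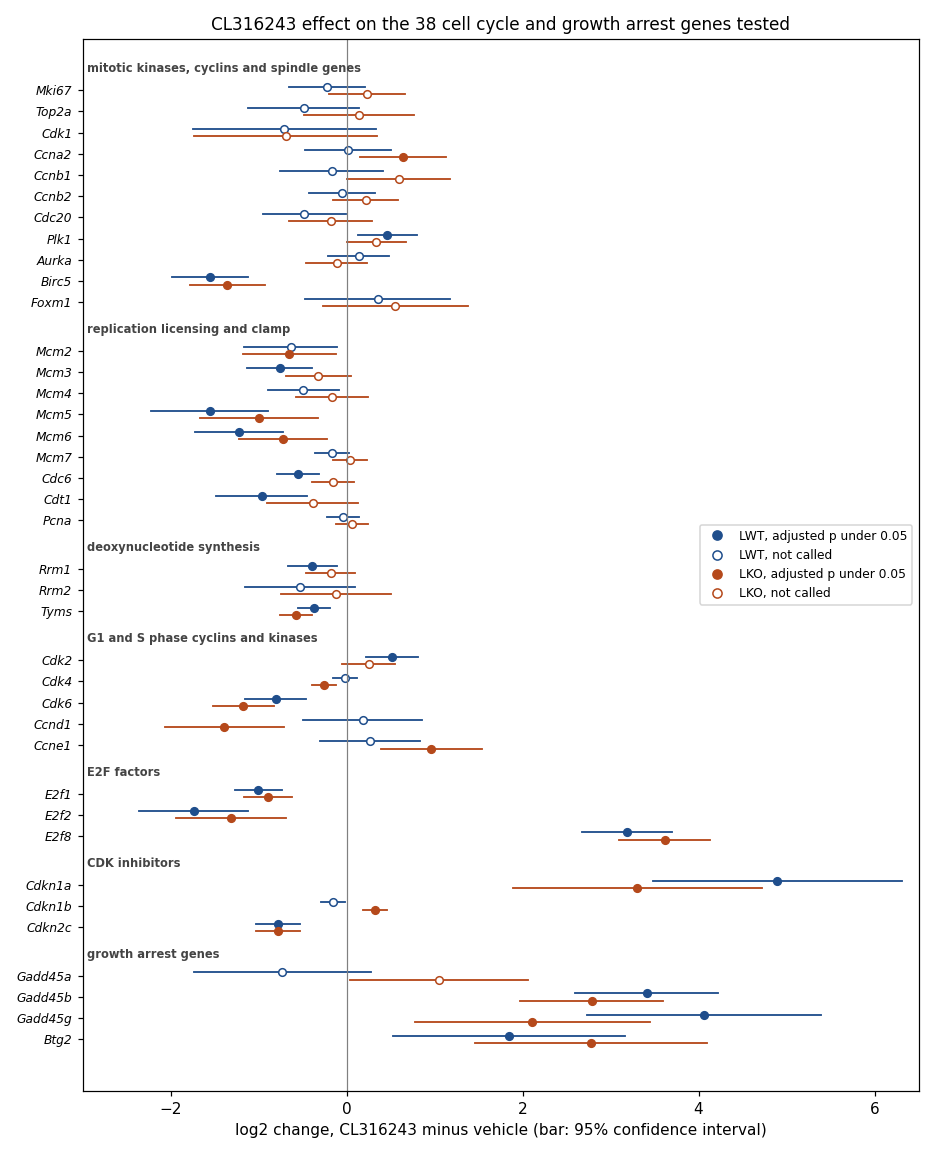
Log2 change with CL316243 (horizontal axis; 95% confidence interval) for the 38 members tested, by role, in LWT (blue) and LKO (orange) livers, with filled points for adjusted p under 0.05. E2f8, Cdkn1a, Gadd45b, Gadd45g and Btg2 lie on the right in both genotypes, and Ccnd1 and Cdkn1b are the members whose 2 points differ by a called amount.

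The CDK inhibitor Cdkn1a, which binds cyclin-CDK complexes and is a classic target of p53, had the largest increase of any member in LWT livers. Its level (probe at chr17:29237377-29237436, build mm9 as for all probes below) ran from -2.56 to 1.78 with a median of -0.20 in LWT vehicle and from 2.82 to 5.31 with a median of 5.02 in LWT CL316243. In LKO livers it ran from -1.13 to 2.10 (median 0.61) with vehicle and from 2.13 to 5.29 (median 3.90) with CL316243. Every treated mouse lay above every vehicle mouse of its genotype, and the lowest treated LWT mouse, replicate 4, stood well below the other 5, which began at 4.65. The rise was 4.89 in LWT (29.7-fold, SE 0.68, limma adjusted p 8.15e-06) and 3.30 in LKO (9.88-fold, SE 0.68, limma adjusted p 0.000559). Within slides 1, 2 and 3 it was 3.56, 6.14 and 4.99 in LWT and 2.91, 3.75 and 3.25 in LKO. The difference between genotypes, -1.59, had a 95% interval of -3.59 to 0.41 and was not called (limma adjusted p 0.421). A second Cdkn1a probe, well above background on 2 and 3 of 6 vehicle arrays in LWT and LKO, differed by 3.08 and 1.80.

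Cdkn1b, an inhibitor that holds resting cells out of the cycle through Cdk2, moved far less than Cdkn1a, and its response depended on genotype. Levels (chr6:134875424-134875483) were 2.07 to 2.29 (median 2.15) with vehicle and 1.90 to 2.09 (median 2.02) with CL316243 among LWT mice, and 2.0 to 2.27 (median 2.08) and 2.25 to 2.62 (median 2.40) respectively among LKO mice. All 6 treated LKO mice lay above all 6 treated LWT mice, while the vehicle groups overlapped, and 1 vehicle LKO mouse lay above the lowest treated LKO mouse. With CL316243 it rose by 0.32 in LKO (SE 0.07, limma adjusted p 0.000511), and its change in LWT was -0.16 (limma adjusted p 0.0694). The LWT change was called under quantile normalization (-0.18, adjusted p 0.0267) and with array weights (-0.16, adjusted p 0.0495). These calls rest on the brightest probe: a second, near-background probe changed by -0.60 in LWT and -0.19 in LKO, and with the mean of both the LKO change was 0.07 (limma adjusted p 0.782).

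The third inhibitor, Cdkn2c, which binds Cdk4 and Cdk6, fell. It dropped by 0.78 in LWT (SE 0.12, limma adjusted p 2.54e-05) and by 0.78 in LKO (SE 0.12, limma adjusted p 2.88e-05). Treated mice lay below vehicle mice without overlap in both genotypes: the highest treated levels were -0.40 and 0.16 and the lowest vehicle levels 0.14 and 0.17. The interval of the difference between genotypes was -0.35 to 0.35.

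Of the 4 growth arrest genes, Gadd45b, Gadd45g and Btg2 rose in both genotypes and Gadd45a in neither. The Gadd45 proteins are small stress-induced partners of PCNA, CDK complexes and MAP kinase kinase kinases, and Gadd45b is known as an early gene of the regenerating liver. Gadd45b (chr10:80394367-80394426) ran from -1.77 to -0.35 (median -1.18) in LWT vehicle and from 0.40 to 3.06 (median 2.83) in LWT CL316243. In LKO it ran from -1.94 to -0.17 (median -0.52) with vehicle and from 1.28 to 2.42 (median 2.22) with CL316243. The groups did not overlap in either genotype. Its rise was 3.41 in LWT (10.6-fold, SE 0.39, limma adjusted p 6.56e-07) and 2.78 in LKO (6.89-fold, SE 0.39, limma adjusted p 1.11e-05).

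Gadd45g, which like Gadd45b has no second probe here, had the wider spread between mice. Levels (chr13:51943733-51943792) were 1.89 to 5.65 (median 3.02) with vehicle and 5.86 to 8.34 (median 7.74) with CL316243 among LWT mice, and 3.54 to 5.34 (median 4.05) and 5.07 to 8.65 (median 6.02) respectively among LKO mice. The LWT groups did not overlap, and in LKO the lowest treated mouse, replicate 6, lay below 2 vehicle mice. It rose by 4.06 in LWT (16.7-fold, SE 0.64, limma adjusted p 3.51e-05) and by 2.11 in LKO (4.32-fold, SE 0.64, limma adjusted p 0.0115). The slides differed for this gene: within slides 1, 2 and 3 the change was 1.70, 5.80 and 4.68 in LWT and 4.17, -0.01 and 2.18 in LKO. Its difference between genotypes was -1.95 (95% interval -3.83 to -0.07, limma adjusted p 0.256) and became -2.70 (adjusted p 0.0454) when LWT CL316243 replicate 4 and LKO CL316243 replicate 3 were both left out.

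Btg2, an antiproliferative gene that p53 and growth signals induce, rose in both genotypes. Levels (chr1:135973828-135973887) were -0.49 to 1.70 (median 0.29) in LWT vehicle and 0.03 to 3.91 (median 2.37) in LWT CL316243, and the groups overlapped. In LKO they were -0.74 to 0.17 (median -0.50) with vehicle and 0.46 to 4.98 (median 1.83) with CL316243, without overlap. The change was 1.84 in LWT (SE 0.64, limma adjusted p 0.0251) and 2.77 in LKO (SE 0.64, limma adjusted p 0.0014), and a second probe gave 2.0 and 2.95. The LWT rise was no longer called without LWT vehicle replicate 1 (1.67, adjusted p 0.058) or 6 (1.68, adjusted p 0.0562), or without LWT CL316243 replicate 1 (1.51, adjusted p 0.0712) or 3 (1.67, adjusted p 0.0583). Within slides it was 0.19, 2.52 and 2.82 in LWT and 4.31, 2.08 and 1.93 in LKO.

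Gadd45a, a target of p53 and of stress signals, was not called for CL316243 in either genotype. Its levels (chr6:66985376-66985435) were -0.35 to 1.52 (median 0.27) with vehicle and -1.52 to 0.88 (median -0.39) with CL316243 among LWT mice, and -0.55 to 1.43 (median 0.48) and 0.45 to 3.33 (median 0.94) respectively among LKO mice. The changes were -0.74 in LWT (limma adjusted p 0.25) and 1.05 in LKO (limma adjusted p 0.0902). The LWT change passed with array weights (-1.11, adjusted p 0.0332).

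**Figure D2:**
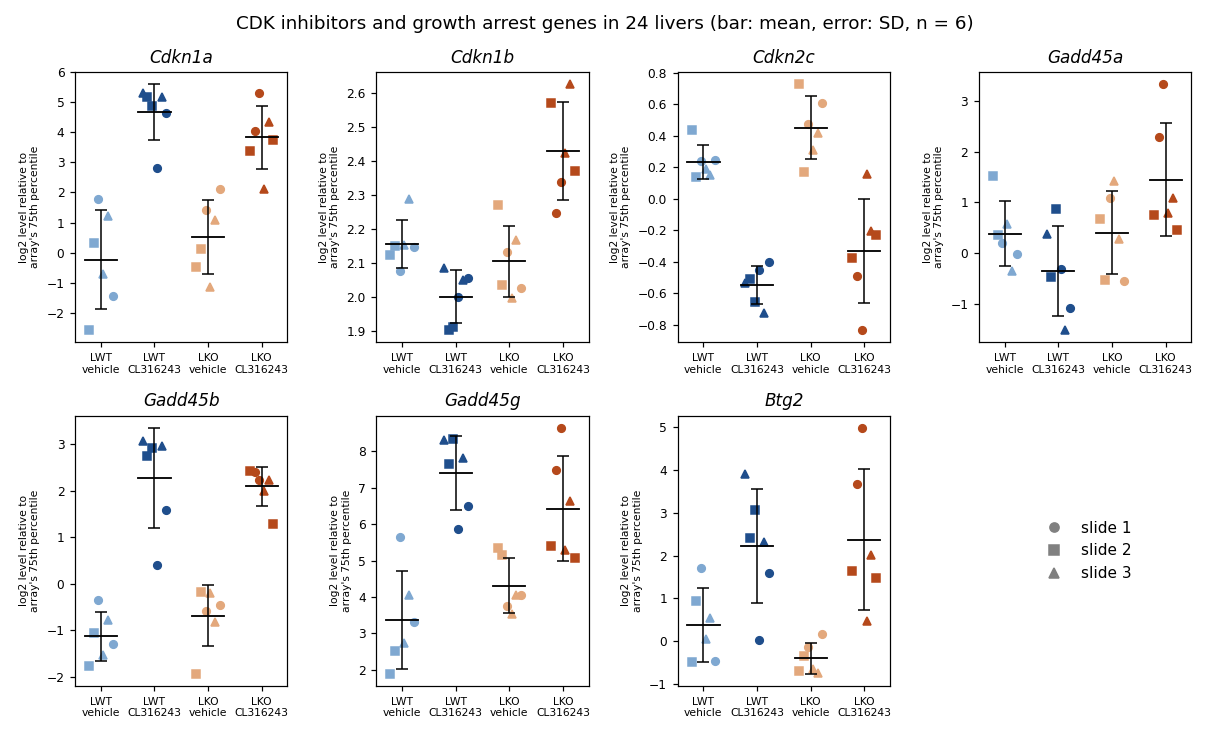
Log2 level relative to the array's 75th percentile (vertical axis) of the 3 CDK inhibitors and 4 growth arrest genes in each of 24 livers, with the mean and SD of 6 mice and the slide as point shape. Cdkn1a and Gadd45b are higher in every treated mouse, Cdkn2c is lower, and Gadd45a overlaps between vehicle and CL316243.

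The same mice recurred at the edges of these groups. Among treated LWT mice, replicate 4 was lowest for Cdkn1a (2.82), Gadd45b (0.40), Gadd45g (5.86) and Btg2 (0.03), and replicate 6 came next for each. Among treated LKO mice, replicate 3 was highest for Cdkn1a (5.29), Gadd45a (3.33), Gadd45g (8.65) and Btg2 (4.98), and was lowest for Ccnd1 (-0.33), Cdk6 (0.25), E2f2 (-2.50) and Cdkn2c (-0.83). All 3 of these mice were hybridised on slide 1. Without LWT CL316243 replicate 4 and LKO CL316243 replicate 3, a choice made after the values were seen, 19 members were called in LWT and 17 in LKO.

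The E2F factors split by kind. E2f1 and E2f2, activators of S phase genes, fell in both genotypes, and E2f8, a repressor that closes the E2F programme and is prominent in polyploid hepatocytes, rose. E2f8 (chr7:56121860-56121919) ran from -1.26 to -0.36 (median -0.90) in LWT vehicle and from 1.98 to 2.71 (median 2.25) in LWT CL316243. In LKO it ran from -2.57 to -1.67 (median -1.90) with vehicle and from 0.59 to 2.45 (median 1.76) with CL316243. No treated mouse overlapped a vehicle mouse. Its rise was 3.19 in LWT (9.10-fold, SE 0.25, limma adjusted p 2.17e-09) and 3.62 in LKO (12.3-fold, SE 0.25, limma adjusted p 4.03e-09). Probes disagreed on the size: one on another transcript, well above background on every array, gave 0.35 and 0.52.

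E2f2 levels (chr4:135750562-135750621) were -1.17 to -0.01 (median -0.52) in LWT vehicle and -2.81 to -1.19 (median -2.48) in LWT CL316243, with no overlap. In LKO they were -0.99 to 0.10 (median -0.34) and -2.50 to -0.61 (median -1.82), with 1 treated mouse, replicate 4, inside the vehicle range. E2f2 fell by 1.74 in LWT (3.34-fold, SE 0.30, limma adjusted p 9.22e-05) and by 1.32 in LKO (2.49-fold, SE 0.30, limma adjusted p 0.00138). With normexp background correction, whose offset of 50 shrinks the log2 changes of dim probes, these were -1.04 and -0.83, both still called. E2f1 (chr2:154385798-154385857) ran from -1.38 to -0.56 (median -0.96) in LWT vehicle and from -2.28 to -1.42 (median -1.98) in LWT CL316243. In LKO it ran from -0.58 to -0.22 (median -0.34) with vehicle and from -1.41 to -1.09 (median -1.3) with CL316243. It fell without overlap, by 1.0 in LWT (SE 0.13, limma adjusted p 3.27e-06) and by 0.89 in LKO (SE 0.13, limma adjusted p 1.63e-05), and by 0.64 in LWT with normexp.

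Genes of licensing and the clamp, among which Cdc6 and Cdt1 load the MCM helicase on origins before replication, fell or were not called. Of 9 in the group, 5 fell in LWT (Mcm5, Mcm6, Mcm3, Cdt1 and Cdc6) and 3 in LKO (Mcm5, Mcm6 and Mcm2), and 0 rose. Among all genes 19.1% fell in LWT and 19.4% in LKO. The MCM helicase subunit Mcm5 (chr8:77651350-77651410), shown above with its E2F match, ran from -2.18 to 0.46 (median -0.64) in LWT vehicle and from -3.23 to -1.42 (median -2.31) in LWT CL316243. In LKO it ran from -1.88 to -0.54 (median -1.19) and from -2.65 to -1.82 (median -2.21). Groups overlapped in both genotypes, in LWT through vehicle replicate 6 and in LKO through vehicle replicate 4. Mcm5 fell by 1.56 in LWT (SE 0.32, limma adjusted p 0.00055) and by 1.0 in LKO (SE 0.32, limma adjusted p 0.0165), or by 0.96 and 0.55 with normexp.

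Mcm6, another helicase subunit with 3 E2F matches, showed the same order of groups. It was at 1.0 to 2.99 (median 2.11) in LWT vehicle and 0.16 to 1.3 (median 0.83) in LWT CL316243, and at 1.27 to 2.39 (median 1.80) and 0.82 to 1.39 (median 1.08) in LKO (chr1:130228178-130228237), with some overlap in both. It fell by 1.23 in LWT (SE 0.24, limma adjusted p 0.000335) and by 0.73 in LKO (SE 0.24, limma adjusted p 0.0191), where the call was lost without vehicle replicate 5 (-0.62, adjusted p 0.0537). The licensing factors Cdt1 and Cdc6 fell by 0.97 and 0.56 in LWT (limma adjusted p 0.00379 and 0.000572) and changed by -0.39 and -0.15 in LKO, not called. Cdc6 changed by -0.26 in LWT with normexp, still called. Mcm3 fell by 0.76 in LWT (limma adjusted p 0.00178), and its 4 probes lay between -0.79 and -0.71.

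Mcm2 and Mcm4 sat near the threshold. Mcm2 fell by 0.65 in LKO (limma adjusted p 0.0447), a call lost under 7 of 13 other settings and without any of 13 mice (LKO CL316243 replicates 1, 2, 3 and 6, LKO vehicle 1, 2, 3 and 5, LWT CL316243 2 and 4, and LWT vehicle 2, 4 and 5). Its change was -0.66 to -0.54 with a mouse left out, -0.28 with normexp and -0.42 in the authors' deposited table. In LWT, Mcm2 changed by -0.64 (limma adjusted p 0.0524) and Mcm4 by -0.49 (limma adjusted p 0.0511), and each was called in some settings, for example -0.83 and -0.66 without LWT vehicle replicate 6. Mcm7 (-0.17 and 0.04) and the clamp Pcna (-0.04 and 0.06) were not called in either genotype, with intervals for Pcna of -0.23 to 0.14 and -0.12 to 0.25.

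Among enzymes of deoxynucleotide supply, Tyms, thymidylate synthase, fell in both genotypes and the ribonucleotide reductase subunits less clearly. Tyms fell by 0.37 in LWT (SE 0.09, limma adjusted p 0.00187) and by 0.57 in LKO (SE 0.09, limma adjusted p 2.63e-05), without overlap in LKO. With the mean of its 3 probes the LWT change was -0.23 (adjusted p 0.0513). Rrm1 fell by 0.39 in LWT (limma adjusted p 0.0239), not called without LWT vehicle replicate 3 (-0.32, adjusted p 0.0642) or LWT CL316243 replicate 1 (-0.31, adjusted p 0.0703) or with no filter on dim probes (adjusted p 0.0503). Rrm2 changed by -0.53 and -0.12, neither called.

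The G1 and S phase cyclins and kinases did not move as a block. Cdk6, a partner of cyclin D, fell in both genotypes: 1.27 to 1.87 (median 1.62) with vehicle and 0.19 to 1.29 (median 0.84) with CL316243 among LWT mice, and 1.95 to 2.15 (median 2.06) and 0.25 to 1.18 (median 1.03) respectively among LKO mice (chr5:3529287-3529346). The groups were apart in LKO and overlapped in LWT. It fell by 0.81 in LWT (SE 0.17, limma adjusted p 0.000561) and by 1.17 in LKO (SE 0.17, limma adjusted p 1.23e-05), and a second probe gave -0.97 and -0.83. On slide 1, with the treated LWT replicates 4 and 6, the LWT change was -0.17, against -1.27 and -0.98 on slides 2 and 3.

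Cyclin D1, Ccnd1, the cyclin that couples mitogens to Cdk4 and Cdk6, fell in LKO and was not called in LWT. Levels (chr7:152116202-152116261) were 1.48 to 2.99 (median 2.40) with vehicle and 1.99 to 3.07 (median 2.45) with CL316243 among LWT mice, and 2.40 to 3.06 (median 2.54) and -0.33 to 1.91 (median 1.58) respectively among LKO mice. Every treated LKO mouse was below every mouse of LKO vehicle and of LWT CL316243. The changes were 0.18 in LWT (95% interval -0.49 to 0.86, limma adjusted p 0.703) and -1.39 in LKO (2.62-fold lower, SE 0.33, limma adjusted p 0.00175). The lowest treated LKO mice, replicates 3 and 2, shared slide 1, where the LKO change was -2.67, against -0.60 and -0.89 on slides 2 and 3. Among the other members of this group, Cdk2, the kinase of S phase entry, rose by 0.51 in LWT (limma adjusted p 0.00708), and cyclin E1, Ccne1, rose by 0.96 in LKO (limma adjusted p 0.00775). Cdk4 fell by 0.26 in LKO (limma adjusted p 0.00375), where vehicle levels were 3.69 to 3.96 (median 3.78) and treated levels 3.42 to 3.67 (median 3.52).

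**Figure D3:**
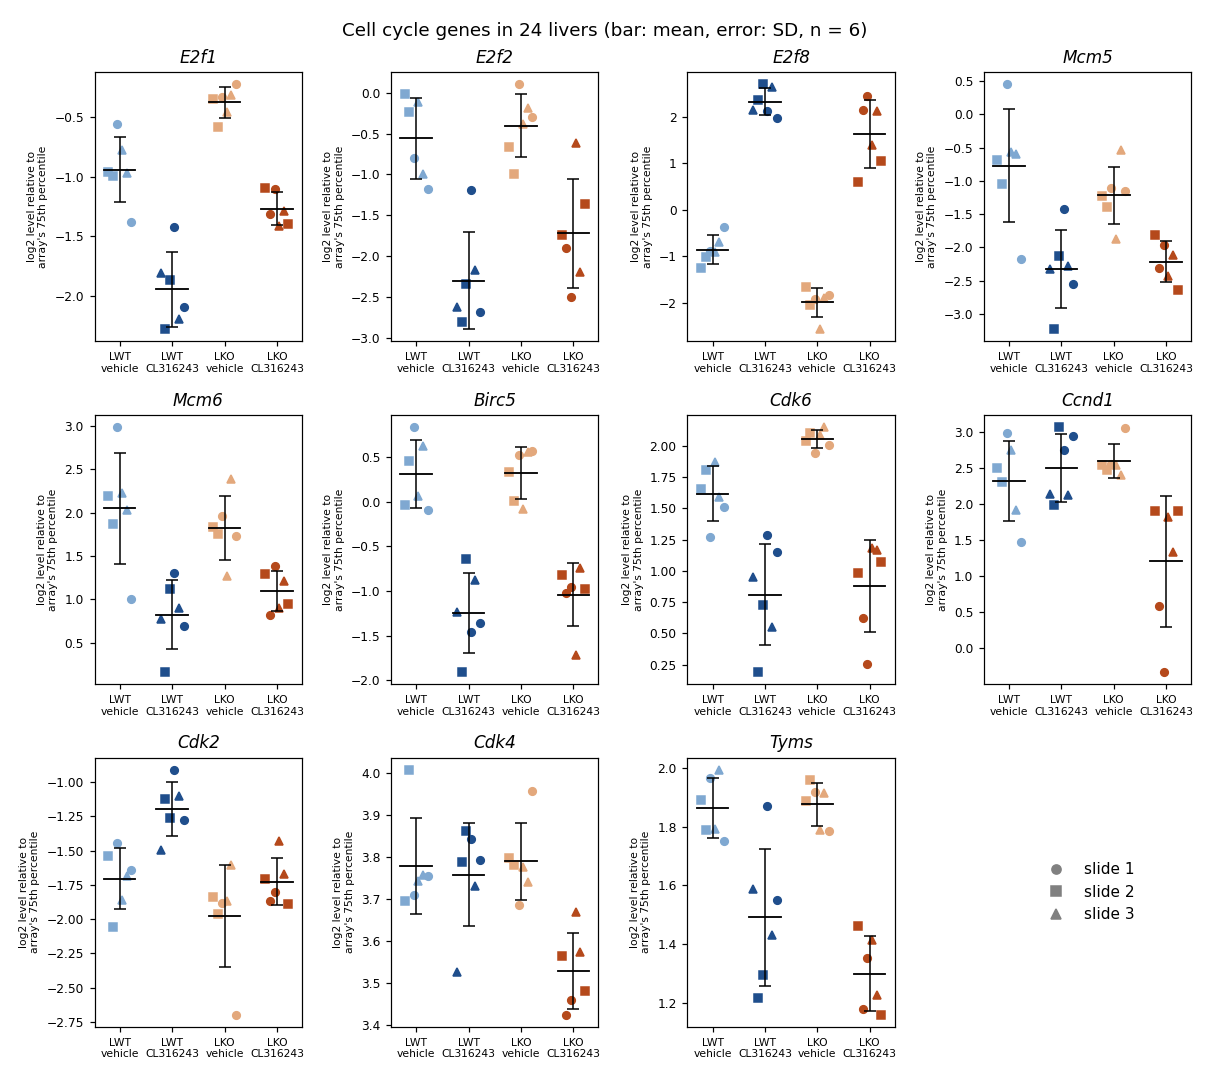
Log2 level relative to the array's 75th percentile (vertical axis) of 11 cell cycle genes in each of 24 livers, with the mean and SD of 6 mice and the slide as point shape. E2f8 is higher and E2f1 and Birc5 lower in every treated mouse of either genotype, while Ccnd1 is lower in treated LKO livers, by the most on slide 1, and overlaps between the LWT groups.

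The mitotic genes had few calls. Of 11 tested, 2 were called in LWT (18.2%, against 38.2% of all genes) and 2 in LKO (18.2%, against 40.2%), and Birc5 was the member called in both. Birc5, survivin of the chromosomal passenger complex, ran from -0.09 to 0.84 (median 0.26) in LWT vehicle and from -1.90 to -0.64 (median -1.29) in LWT CL316243, and from -0.09 to 0.57 (median 0.43) and -1.72 to -0.74 (median -0.96) in LKO (chr11:117716959-117717018). Treated and vehicle mice did not overlap. It fell by 1.55 in LWT (2.94-fold, SE 0.21, limma adjusted p 4.46e-06) and by 1.36 in LKO (2.56-fold, SE 0.21, limma adjusted p 2.65e-05).

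The mitotic kinase Plk1 rose by 0.46 in LWT (limma adjusted p 0.0283). Its call was lost under 4 of 13 other settings and without any of LWT vehicle replicates 1, 4 and 6 or LWT CL316243 replicates 1, 3 and 5 (0.35 to 0.44) and its change was 0.27 with normexp, still called, and 0.27 in the authors' deposited table, not called. Cyclin A2, Ccna2, rose by 0.64 in LKO (limma adjusted p 0.0331), a call lost under 4 of 13 other settings and on removal of any 1 of vehicle mice 2 and 4 or treated mice 1, 3 and 5 of the LKO genotype (0.48 to 0.62). It was 0.36 with normexp and 0.38 in the authors' deposited table, both called. The proliferation marker Mki67 changed by -0.22 and 0.23 and Top2a, the topoisomerase of mitotic chromosomes, by -0.49 and 0.14, none called. The cyclins Ccnb1 and Ccnb2, the kinase Aurka and the checkpoint target Cdc20 were not called for CL316243 in either genotype. In LKO, Ccnb1 changed by 0.59 and was called with normexp (0.27) and array weights (0.71), and without vehicle replicate 6 or treated replicate 1. Cdc20 changed by -0.48 in LWT, called without vehicle replicate 6 or treated replicate 3. Plk1 changed by 0.34 in LKO, called only with normexp, with array weights and in a fit of the 12 mice compared. For Mki67 and Top2a the 95% intervals in LWT were -0.65 to 0.21 and -1.12 to 0.14. Cdk1, the mitotic kinase, was above background on 3, 1, 4 and 0 of 6 arrays in LWT vehicle, LWT CL316243, LKO vehicle and LKO CL316243, and Foxm1, a factor that drives mitotic genes, on 3, 2, 3 and 4, so both were barely measured.

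The dependence on genotype was tested as the difference between the LKO and LWT responses to CL316243, LKO minus LWT. A difference was called for 2 of 38 members, Cdkn1b and Ccnd1, against 5.40% of all genes, and with a size of at least 1 for Ccnd1 alone, against 2.03%. For Cdkn1b it was 0.48 (SE 0.09, 95% interval 0.28 to 0.67, limma adjusted p 0.00273), with 0.30, 0.55 and 0.60 on the 3 slides, and 0.45 (adjusted p 0.334) with the mean of its probes. For Ccnd1 it was -1.57 (SE 0.46, 95% interval -2.53 to -0.61, limma adjusted p 0.048), with -3.29 on slide 1 and -0.73 and -0.70 on slides 2 and 3. The Ccnd1 call was lost with slide as a block (adjusted p 0.0571), with slide and row (0.0684), under quantile (0.0543) or median scaling (0.0512), with no filter (0.0992), and without the 2 mice at the edge of their groups (-1.22, adjusted p 0.0593). Leaving out any of 16 of 24 mice also ended the Ccnd1 call (-1.65 to -1.40, limma adjusted p 0.0529 to 0.0859); the exceptions were LWT vehicle replicates 3 and 4, LWT CL316243 1 and 2, and LKO CL316243 1, 3, 4 and 6. For the other 36 the interval of the difference was often wide, as for Gadd45a (1.78, 95% interval 0.36 to 3.21, limma adjusted p 0.151) and Btg2 (0.93, interval -0.93 to 2.79).

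Between genotypes under vehicle, E2f1 was higher and E2f8 lower in LKO, and these 2 of 38 were the members called, against 1.18% of all genes. E2f8 alone differed by at least 1, against 0.502% of all genes. The E2f8 groups did not overlap, with LKO levels of -2.57 to -1.67 below LWT levels of -1.26 to -0.36. The E2f8 difference was -1.13 (SE 0.25, limma adjusted p 0.0198). It was not called without LWT vehicle replicate 5 (-1.10, adjusted p 0.0512) or 6 (-1.03, adjusted p 0.0632) or LKO vehicle replicate 4 (-1.01, adjusted p 0.0648). Nor was it called with normexp (-0.79, adjusted p 0.0888) or with the mean of its probes (-0.54, adjusted p 0.439). The E2f8 probe with the smaller rises differed by 0.27, and the third probe, near background under vehicle, by -0.74. E2f1 differed by 0.57 (SE 0.13, limma adjusted p 0.0277), with 1 LWT mouse, replicate 3, inside the LKO range and the other 5 below it. The E2f1 call was lost with no filter on dim probes (adjusted p 0.0699) and without any of LWT vehicle replicates 1, 2, 5 and 6 or LKO vehicle replicates 1, 3, 5 and 6 (0.48 to 0.56). Cdk6 levels were, with E2f8, the other ones apart under vehicle (1.81% of all genes), by 0.44, but the difference was not called (limma adjusted p 0.387) except in a fit of only the 12 mice compared (adjusted p 0.0434).

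Under CL316243, 6 of 38 members differed between genotypes, against 15.9% of all genes, with 2 past a size of 1 (3.68% of all genes), 3 higher (7.56% of all genes) and 3 lower (8.30%) in LKO. Higher in LKO were Gadd45a, by 1.81 (3.50-fold, SE 0.49, limma adjusted p 0.0122), E2f1, by 0.68 (SE 0.13, limma adjusted p 0.000716), and Cdkn1b, by 0.43 (SE 0.07, limma adjusted p 6.23e-05). Lower in LKO were Ccnd1 at -1.3 (2.46-fold, limma adjusted p 0.00762), Cdk2 at -0.53 (limma adjusted p 0.0122) and Cdk4 at -0.23 (limma adjusted p 0.022). The genotypes did not overlap for E2f1, Cdkn1b and Ccnd1, and the share of all genes without overlap was 6.55%. Cdk2 levels (chr10:128135658-128135717) were -2.06 to -1.45 (median -1.66) with vehicle and -1.50 to -0.91 (median -1.19) with CL316243 among LWT mice, and -2.70 to -1.61 (median -1.88) and -1.89 to -1.43 (median -1.75) respectively among LKO mice, so 1 treated LKO mouse reached the LWT range. Cdk4 levels (chr10:126504279-126504338) were 3.70 to 4.01 (median 3.75) in LWT vehicle and 3.53 to 3.86 (median 3.79) in LWT CL316243.

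Several of these 6 differences depend on single mice or settings. The Gadd45a difference was 3.51 on slide 1, which held LKO replicates 2 and 3, and 0.39 and 1.52 on the other slides, and in a fit of only the 12 mice compared it was not called (adjusted p 0.0506), nor was that of Ccnd1 (adjusted p 0.0504). Cdk4 lost its call without LKO CL316243 replicate 2 (-0.21, adjusted p 0.0555) and under 4 of 13 other settings, and Cdkn1b with the mean of its probes (0.26, adjusted p 0.356). With normexp, Cdk2 was at -0.33 and E2f1 at 0.42, both called. E2f8 differed by -0.70 and was not called (limma adjusted p 0.0601), though it was with normexp (-0.66, adjusted p 0.0409), with array weights (-0.79, adjusted p 0.0222), in the authors' deposited table (-0.67, adjusted p 0.0401), without LKO CL316243 replicate 2 (-0.80), 3 (-0.86) or 5 (-0.80), and without both edge mice (-0.90, adjusted p 0.015). Without LWT CL316243 replicate 4 and LKO CL316243 replicate 3 the count of members was 9.

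The rest of the cycle was read through 5 lists of other genes, whose counts stand beside the 19.1% of all genes that rose and 19.1% that fell in LWT, and the 20.7% and 19.4% in LKO. Of 31 other S phase genes tested of 32 listed, 19 fell in LWT and 16 in LKO, with 0 rising, and their median changes were -0.59 and -0.41. Tk1, thymidine kinase, fell by 2.51 in LWT (SE 0.21, limma adjusted p 4.59e-09) and by 2.41 in LKO, and Mcm10, a replication initiation factor, by 1.54 and 2.29. Under CL316243, Fen1, the flap endonuclease, was higher in LKO by 0.53 (limma adjusted p 0.0426) and Mcm10 differed by -0.93 (limma adjusted p 0.0457). Neither was called with slide as a block (adjusted p 0.0522 and 0.0611). The Fen1 call was lost without any of 12 mice (LWT vehicle 4 and 5, LWT CL316243 1, 2, 4, 5 and 6, LKO vehicle 3, and LKO CL316243 1, 3, 4 and 6). That of Mcm10 was lost without any of 17 (all but LWT vehicle 2 and 6, LWT CL316243 3, and LKO CL316243 1, 2, 4 and 6), with -0.61 without LKO CL316243 replicate 3, and its difference was -0.51 with the mean of its probes. Of 32 other mitosis genes tested of 49 listed, 13 fell and 2 rose in LWT, and 7 fell and 1 rose in LKO. Cks2, a CDK subunit, fell by 1.61 in LWT, and its mean level in LKO went from 3.32 to 2.46. Cdca8, a passenger complex subunit, fell by 0.87 in LKO, and its mean level in LWT went from -1.17 to -2.04. Aspm, a spindle pole protein, rose by 1.51 and 1.33, with 5 and 4 of 6 vehicle arrays above background in LWT and LKO. Spc25, a kinetochore subunit, was lower in LKO by a difference of -1.86 under vehicle and -2.91 under CL316243, where Cks2 was higher by 0.70 (not called in a fit of only the 12 mice compared, adjusted p 0.0841).

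Of 26 other G1 genes tested of 27 listed, 11 fell and 4 rose in LWT, and 10 fell and 2 rose in LKO. The growth regulator Myc rose by 2.0 in LWT (limma adjusted p 0.000583), and its mean level in LKO went from -0.28 to -0.19. The difference between these responses was not called, but it was in some settings, for example with array weights (-2.18, limma adjusted p 0.00721). Mycn, a relative of Myc, fell by 3.29 in LWT and by 2.49 in LKO, with 4 and 5 of 6 treated arrays above background. Ccng2, a cyclin linked to arrest, rose by 1.24 in LKO (0.90 with the mean of its probes, adjusted p 0.114). Its mean level in LWT went from 0.02 to 1.37. The E2F partners Tfdp2 and Tfdp1 differed between genotypes under CL316243 by 0.58 and -0.31. Of 20 other inhibitors and arrest genes, 5 rose and 6 fell in LWT, and 7 rose and 4 fell in LKO, with the all-gene shares at 19.1% each way in LWT and 20.7% and 19.4% in LKO. Btg3, a relative of Btg2, rose by 1.89 in LWT, and its mean level in LKO went from 2.71 to 5.41. Klf6 rose by 2.88 in LKO, and its mean level in LWT went from 1.07 to 2.51. Gas1 fell by 1.96 and 2.29, with 4 and 5 of 6 treated arrays above background. Klf6 was also higher in LKO under CL316243 by 1.35 (adjusted p 0.0594 in a fit of only the 12 mice compared).

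Of 21 p53 targets tested of 22 listed, 3 of them members (Cdkn1a, Btg2 and Gadd45a), 5 rose and 5 fell in LWT, and 10 rose and 3 fell in LKO. Of all genes 19.1% went each way in LWT, and 20.7% rose and 19.4% fell in LKO. The apoptosis gene Bbc3 fell by 1.73 in LWT, and its mean level in LKO went from 1.93 to 1.63. Sesn1 fell by 0.63 in LKO (adjusted p 0.0537 in a fit of only the 12 mice compared). Its mean level in LWT went from 1.49 to 0.70. Under CL316243 Trp53inp1 was higher in LKO by 2.73 (SE 0.27, limma adjusted p 1.36e-07), and Perp was lower, at -0.99, as it was under vehicle, at -0.78. Beside these lists, all genes tested moved by medians of 0.01 and 0.03.

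**Figure D4:**
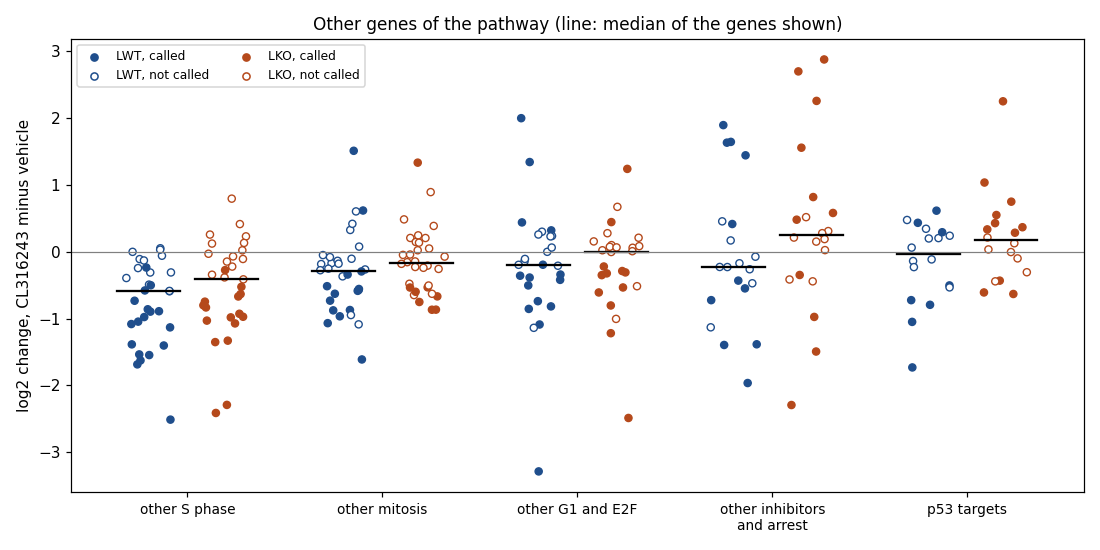
Log2 change with CL316243 (vertical axis) of the genes in the 5 lists that are not members, in LWT (blue) and LKO (orange), with filled points for adjusted p under 0.05 and a line at the median. The other S phase genes lie at or below 0 where called, while the other lists hold called genes on both sides.

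Markers of other cells moved with the treatment too, and their part in the members' changes was not tested. The summed linear level of 6 erythroid markers measured, of 7 listed, ran from 266 to 348 in LWT vehicle and from 165 to 292 in LWT CL316243 (exact permutation p 0.00866, two-sided). In LKO it ran from 216 to 516 and from 204 to 387 (exact permutation p 0.193). Of these 6, 0 were called higher and 1 lower in LWT, and 0 higher and 3 lower in LKO. Klf1, the erythroid transcription factor, fell by 1.29 in LWT and by 1.88 in LKO. A linear sum rests mainly on its brightest probes, here Hba-a1 (mean level 8.14 in LWT vehicle, next Alas2 at 4.74). For lymphocytes the brightest was Cd4 and for stellate cells Dcn. Of 9 lymphocyte markers 7 were measured, and Cd8a and Cd79a were near background; the sum was 44.5 to 54.7 and 32.6 to 51.5 in LWT (exact permutation p 0.117), and 43.4 to 55.8 and 33.0 to 48.7 in LKO (exact permutation p 0.0152). Of these 7, 0 were called higher and 2 lower in LWT, and 1 higher and 4 lower in LKO. The B cell gene Ms4a1 fell by 1.45 in LWT and by 1.67 in LKO. In LKO the T cell gene Cd3e rose by 0.24, while Cd4 and Ptprc of the same list fell by 0.35 and 0.38. The sum of 7 of 8 neutrophil markers was 4.41 to 9.41 and 4.76 to 21.4 in LWT (exact permutation p 0.0238), and 4.47 to 6.37 and 6.90 to 71.3 in LKO (exact permutation p 0.00216). That list went both ways in LWT: S100a8, S100a9 and Retnlg rose, while Camp and Ly6g fell by 0.41 and 0.38. For 10 of 11 Kupffer cell markers it was 83.3 to 175 and 95.4 to 187 in LWT (exact permutation p 0.942), and 91.8 to 161 and 85.9 to 158 in LKO (exact permutation p 0.861), with 0 of 10 called in either. The hepatocyte sum rose in median from 5119 to 5919 in LWT (exact permutation p 0.00216) and from 4962 to 5971 in LKO (exact permutation p 0.0173). Of its 7 markers, 2 were called higher and 0 lower in LWT, and 2 higher and 1 lower in LKO. Medians of the 8 endothelial markers were 67.7 and 74.0 in LWT (exact permutation p 0.00866) and 70.3 and 68.4 in LKO (exact permutation p 0.933). Of the 8, 2 were called higher and 0 lower in LWT, and 1 higher and 2 lower in LKO. Lyve1 rose by 1.18 in LWT and by 2.39 in LKO, where Kdr and Tek fell by 0.56 and 0.53. Medians of the 7 stellate cell markers were 77.5 and 91.4 in LWT (exact permutation p 0.0498), and 83.2 and 95 in LKO (exact permutation p 0.0433). That list too went both ways in LWT, where Dcn rose by 0.28 and Lrat fell by 0.71, and 0 of 7 were called in LKO. The median sum of the 6 cholangiocyte markers went from 7.76 to 11.6 (exact permutation p 0.0346) and from 6.06 to 15.4 (exact permutation p 0.00216). Of the 6, 1 was called in LWT, Sox9 (1.47), and 2 in LKO, Sox9 (2.18) and Spp1 (0.96). The mean level of Krt19 went from -2.18 to -2.70 in LWT and from -2.38 to -2.14 in LKO, not called.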

How the data were processed

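Liver RNA of 24 mice was labelled with Cy3 and hybridised to 1-colour Agilent arrays, 1 array a mouse. The deposited intensity values are Feature Extraction's processed signals, background-corrected by the authors' scanner software, per the file headers. The authors' deposited series table holds log2 values, which were used as an alternative. From the intensities, log2 minus each array's 75th percentile over gene probes was computed. Probes not well above background on at least 4 arrays of some group were left out, and a gene was read from its brightest kept probe. Fits used limma 3.58.1 in R 4.3.3 on 24 arrays, with Benjamini-Hochberg adjustment over 21331 genes and a threshold of 0.05; the code was tested on simulated data. Marker sums were compared by exact permutation over 924 splits. Group ranges are given for members called in a genotype comparison or the interaction, or called for CL316243 with a log2 change of at least 1; in each pathway list the called gene with the largest rise and fall is named per comparison, and other genes printed with values were added after those were seen. The members and lists were chosen with earlier results of these data known. Alternatives were background correction, normalization, filters, probe choice, array weights, slide, row and replicate blocks, the 12 mice compared, the authors' table and leaving out each mouse; leaving out both mice at the edge of their groups was chosen after seeing the data.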

Additional observations from a re-analysis of the deposited data

Results flagged for a closer look

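In 152 groups of 6 mice examined, 11 held a mouse whose gap to its nearest neighbour took a large share of the group's range; chance flags about 1 in 20 groups. In LWT vehicle these were Cdk4 in replicate 2 (level 4.01, next 3.76, share 0.801), Cdkn1b in replicate 5 (2.29, next 2.15, share 0.638) and Cdkn2c in replicate 1 (0.43, next 0.25, share 0.630). In LWT CL316243 Cdkn1a in replicate 4 stood at 2.82, next 4.65, a share of 0.734. In LKO vehicle these were Plk1 in replicate 4 (-2.90, next -2.59, share 0.732), Foxm1 in replicate 2 (-5.64, next -4.36, share 0.630), Cdk2 in replicate 6 (-2.70, next -1.96, share 0.676), Ccnd1 in replicate 6 (3.06, next 2.56, share 0.768) and Gadd45b in replicate 1 (-1.94, next -0.82, share 0.637). In LKO CL316243 they were Birc5 in replicate 4 (-1.72, next -1.02, share 0.719) and Gadd45b in replicate 6 (1.28, next 2.0, share 0.629).

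The effect of CL316243 differed between genotypes by a tested amount for Ccnd1 (-1.57, limma adjusted p 0.048) and Cdkn1b (0.48, limma adjusted p 0.00273). Both calls depended on the processing. That of Ccnd1 was lost, for example, with slide as a block (limma adjusted p 0.0571) and on leaving out most single mice. That of Cdkn1b was lost with the mean of its probes (limma adjusted p 0.334).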

How the results depend on the processing

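The counts of members called kept within 1.5 times of the reported ones for CL316243 in LWT (17 to 23), in LKO (17 to 21) and LKO against LWT under CL316243 (4 to 9 over 13 other settings). The count for the genotype dependence was 1 in place of 2 under quantile normalization, scaling to the median, no filter, the mean of kept probes, a slide block, slide and row blocks, and the replicate block. The count under vehicle was 1 in place of 2 with normexp, with no filter and with the mean of kept probes. Leaving out each mouse in turn gave 16 to 21, 17 to 20, 1 to 2, 0 to 2 and 6 to 8 in the order LWT, LKO, dependence, vehicle and CL316243. With the replicate number as a block the counts were 21, 19, 1, 2 and 8; no label says that the numbers pair the mice, whose same-number deviations correlated at a median of 0.055 (36 pairs, -0.18 to 0.42). Under that block the genotype dependence of Ccnd1 was not called (adjusted p 0.0655), while the changes of Cdkn1b in LWT (-0.16, adjusted p 0.0345) and Gadd45a in LKO (1.05, adjusted p 0.0425) and the E2f8 difference under CL316243 (adjusted p 0.0442) were. With no filter the median of all genes moved to 0.11 in LWT and 0.10 in LKO. The cause of these shifts was not tested. Over the 38 members, no called direction reversed in 2417 comparisons under 13 other settings or in 4560 with a mouse left out. Calls were lost in 36 and 59 and gained in 34 and 19. Most of these comparisons concern results not called in the first place, since only 48 member results were called and could lose a call. Over the 19 other genes named from the lists, none reversed either. Calls were lost in 29 and 63 comparisons and gained in 26 and 25, among 1216 and 2280 that also include results not called in the first place. Genes near background, such as Cdk1 and Foxm1, were limited by signal, and 6 mice a group limit precision.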
